A study of Rattus norvegicus with 5 samples.

Results

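ATF4 amino acid response genes are described here in parental INS-1 cells and in 4 clones made from them. The genes were chosen by name as 39 known members of the response: transcription factors and other regulators, enzymes of amino acid and folate metabolism, amino acid transporters and cytosolic tRNA synthetases. Chac1, an enzyme gene, and Vldlr, a receptor gene, are counted with the regulators. The rule that picks them uses gene names and no signal, but the members were chosen with earlier results of these data known. Of the 39 genes, 36 had a probe set with a single gene symbol on the array, out of 10411 such genes, and 34 were bright enough to test, out of 6944. The cystine transporter gene Slc7a11, the proline synthesis gene Pycr1 and the stress sensor gene Sesn2 had no such probe set and are not analysed here. Phgdh, which encodes the entry enzyme of serine synthesis, and Cth, which makes cysteine, were too dim to test. Phgdh signals lay between 26.8 and 35.1, and Cth signals between 8.2 and 90.0. The 36 genes were read by 46 probe sets, of which 41 were tested, and each gene is given by its brightest tested probe set unless another is named.

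ATF4 is a basic leucine zipper transcription factor whose mRNA is translated more when the initiation factor eIF2 is phosphorylated. Kinases that phosphorylate eIF2 sense uncharged tRNA, unfolded protein in the endoplasmic reticulum, double-stranded RNA or heme. ATF4 binds with C/EBP partners to composite elements near genes for amino acid synthesis, import and tRNA charging, and it also induces CHOP (Ddit3), ATF3 and TRIB3. Beta cells make large amounts of secretory protein, and chronic activity of this pathway in them is known to accompany stress and death.

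INS-1 is a rat insulinoma line with features of pancreatic beta cells. Total RNA was measured on 5 single-colour rat arrays, 1 for the parental line and 1 for each of the Flp-In T-REx clones 1-1.2, 1-1.16, 5-3.14 and 5-3.19. In the Flp-In T-REx system, which the labels give by name, cells carry an FRT site, where Flp recombinase can insert a gene. They also carry the tetracycline repressor, which lets tetracycline switch such a gene on. The labels name no inserted gene and no tetracycline for any array, and they do not say how the 2 sets of 2 clones arose or whether sister clones share an origin. The deposited values are linear signals in arbitrary units, so a signal is compared between arrays for a gene and not between genes.

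The arrays had been scaled to a common trimmed mean of 1000.24 to 1000.28, and their median signals were 342.4 to 371.6. All 8 beta cell marker genes on the array, of 11 listed, were bright enough to test. Their summed signal was 141262 in the parental line, 142463 in 1-1.2, 89734 in 1-1.16, 107144 in 5-3.14 and 108838 in 5-3.19. The brightest genes dominate this sum. In 1-1.2, 3 of the 8 genes were above the parental array and 5 below it. Of these, Pcsk2 (3331 against 9130) and Nkx6-1 (1053 against 2220) were at least 2-fold lower, as were 3.45% of all probe sets. In 1-1.16 all 8 were below the parental array, 2 of them at least 2-fold (4.46% of all probe sets), and Pcsk2 read 1974. In 5-3.14, 3 were above and 5 below, with 3 at least 2-fold lower (5.6%). In 5-3.19, 2 were above and 6 below, with 1 at least 2-fold lower (2.61%). The insulin gene Ins2 was bright in 1-1.2 (30224) and the parental line (28816) and lower in 1-1.16 (5381), 5-3.14 (3953) and 5-3.19 (4303). The alpha cell hormone gene Gcg was also bright on every array, from 2064 in 1-1.2 to 24434 in 5-3.19. Sst and Hhex, the other alpha and delta cell marker genes on the array, were too dim to test, with no signal above 101.2. Of the marker genes of acinar cells (6 on the array), fibroblasts (5), endothelium (2) and leukocytes (4), none was bright enough to test, with no signal above 253.2. The duct marker gene Krt7 read between 808 and 1834, while Krt19, also a duct marker, was too dim to test (57.7 to 110.4). Bacterial poly(A) control transcripts were brighter on the parental array than on the mean clone array, by 1.27- to 3.54-fold. The ratio of 3′ to 5′ signal of the beta-actin controls was highest on the 1-1.16 array (1.73, against 1.49 to 1.62 on the other arrays). The part of these differences in the results below was not tested.

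Some promoters of the response genes hold a composite element of the kind that ATF4 and C/EBP factors bind, and examples are shown because it is a sequence feature that the choice of genes did not use directly. RefSeq promoters of the GRCr8 assembly, from 250 bases before to 50 bases after the annotated start, were at hand for 35 of the 39 genes. They were searched on both strands for TGATGNAA, the core of the C/EBP-ATF response element, which includes TGATGCAA. In the following stretches, written 5′ to 3′ on the gene's strand, capitals mark the match, which appears as its reverse complement where the element lies on the opposite strand.
Aars1: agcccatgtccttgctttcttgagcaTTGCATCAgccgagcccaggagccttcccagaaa
Iars1: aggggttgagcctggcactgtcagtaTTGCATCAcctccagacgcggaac
Mars1: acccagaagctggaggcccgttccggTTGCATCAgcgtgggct
Nars1: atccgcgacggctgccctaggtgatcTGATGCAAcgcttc
Tars1: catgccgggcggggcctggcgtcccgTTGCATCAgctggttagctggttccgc
Chac1: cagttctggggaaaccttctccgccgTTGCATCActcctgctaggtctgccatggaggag
Nupr1: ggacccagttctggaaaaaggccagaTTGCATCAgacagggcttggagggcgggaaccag
Trib3: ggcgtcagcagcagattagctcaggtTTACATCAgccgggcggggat
Slc7a1: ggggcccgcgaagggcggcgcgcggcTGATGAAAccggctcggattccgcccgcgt

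On GRCr8 these stretches lie at chr19:55908344-55908403 on the plus strand (Aars1), chr17:15193653-15193702 on the minus strand (Iars1), chr7:65023754-65023796 on the minus strand (Mars1) and chr18:60275783-60275822 on the minus strand (Nars1). The Tars1 stretch is at chr2:62114803-62114855 on the minus strand, that of Chac1 at chr3:126795938-126795997 on the plus strand and that of Nupr1 at chr1:190645923-190645982 on the minus strand. The Trib3 stretch is at chr3:161275534-161275580 on the minus strand and that of Slc7a1 at chr12:11664432-11664487 on the plus strand. All of them lie upstream of the annotated start. In Mars1, Nars1, Trib3, Iars1, Tars1 and Slc7a1 the match began at positions -17, -14, -21, -24, -27 and -30 from the start, in Nupr1 at -55, and in Aars1 and Chac1 at -112 and -167.

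The element was found in 13 of the 35 promoters (37.1%), against 1141 of 27457 genes of the promoter table (4.16%) and 1.90% of the genes tested on the array. The stricter form TGATGCAA was in 11 of the 35 (31.4%), against 0.827% of all genes in the table. Among the tRNA synthetase genes 7 of 11 promoters held the element: Aars1, Iars1, Mars1, Nars1 and Tars1 as printed, and Cars1 and Yars1 after the annotated start, at positions 18 and 39. Regulators had it in 3 of 11 promoters, enzymes in 2 of 9 (Got1 and Pycr1) and transporters in 1 of 4. None of 6 promoters of other cytosolic tRNA synthetase genes held it. Genes are known as targets of ATF4 partly through such elements, so the share only describes the list. A match in these letters is not evidence of binding in INS-1 cells, and a promoter without one may have the element outside this window. The median log2 difference of 1-1.16 from the parental array was 0.66 in the 12 tested genes with a match and 0.68 in the 18 without.

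Clone 1-1.16 gave the highest signal of the 5 arrays for 23 of the 34 tested genes, where 25.2% of all 9520 tested probe sets were highest on that array. Clone 1-1.2 was highest for 5 genes (15.7% of all probe sets), the parental line for 4 (19.7%), 5-3.14 for 2 (21.1%) and 5-3.19 for 0 (18.3%). The lowest signal was on 5-3.14 for 13 genes, on 5-3.19 for 13, on the parental array for 7, on 1-1.16 for 1 and on 1-1.2 for 0. The shares of all probe sets lowest on each array were not counted. Highest signals on 1-1.16 were found for 10 of 12 regulators, 5 of 7 enzymes, 2 of 3 transporters and 6 of 12 tRNA synthetases. With other scalings, offsets, filters or choices of probe set, 18 to 24 of the tested genes were highest on 1-1.16. This count was added after the data were seen. Between the highest and the lowest array, 17 of the 34 genes differed by at least 2-fold, as did 25.6% of all tested probe sets. The other 17 differed by 1.36-fold (Aldh18a1) to 1.95-fold (Nupr1), and the gene just past the limit was Shmt2 at 2.04-fold. All folds were taken on signal + 21.8, which understates those of dim genes.

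**Figure D1:**
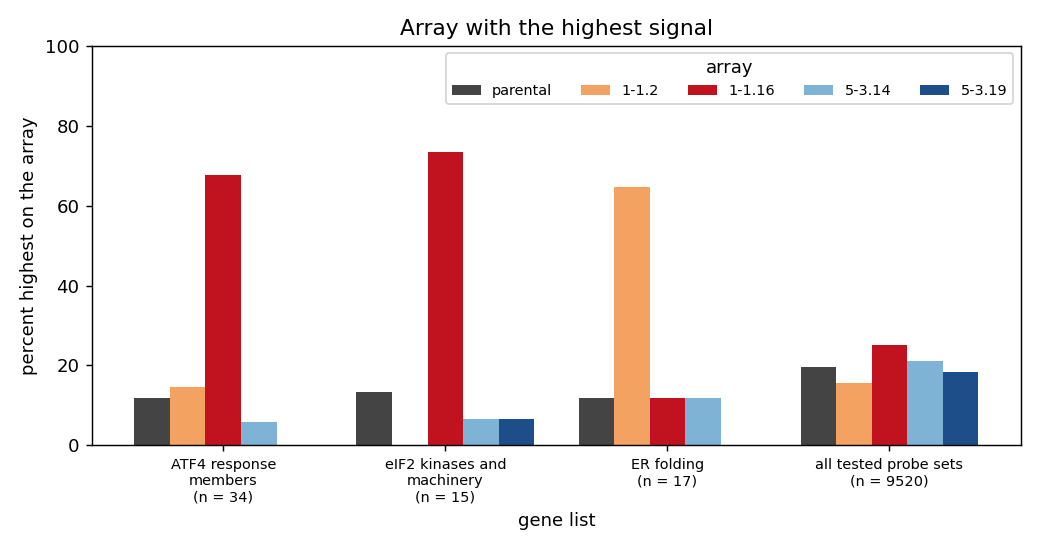
Percentage of tested genes (bars, from 0 to 100%) with their highest signal on each of the 5 arrays, for the ATF4 response genes (n = 34), eIF2 kinases and machinery (n = 15), endoplasmic reticulum folding genes (n = 17) and all tested probe sets (n = 9520). Clone 1-1.16 holds 23 of 34 response genes and 11 of 15 eIF2 genes, while clone 1-1.2 holds 11 of 17 folding genes.

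Among the regulators, 4 stress factor genes set clone 1-1.16 apart from every other array. Trib3 encodes a pseudokinase that is induced by ATF4 and restrains it. Its signal was 179.1 in the parental line, 355.5 in 1-1.2, 1314.4 in 1-1.16, 344.5 in 5-3.14 and 142.2 in 5-3.19. The range of 8.15-fold was the widest of the tested genes, and 1-1.16 was 6.65-fold above the parental array. A second tested Trib3 probe set had the same highest and lowest arrays, 690.7 on 1-1.16 and 98.2 on 5-3.19. Atf3, a stress-induced repressor and activator, read 184.2, 250.9, 878.2, 96.9 and 131.5 on the same order of arrays (parental, 1-1.2, 1-1.16, 5-3.14, 5-3.19). Both 5-3 clones were below the parental array, and 1-1.16 was 4.37-fold above it. Ddit3, the gene of the pro-apoptotic factor CHOP, read 495.8, 675.3, 1896.1, 527.9 and 566.4. Here 4 arrays lay close together and 1-1.16 alone was 3.71-fold above the parental array. Cebpb, whose product pairs with ATF4, read 660.8, 1259.3, 2200.4, 729.3 and 743.4. Both 1-1 clones exceeded the other arrays, 1-1.16 by 3.26-fold over the parental line and 1-1.2 by 1.88-fold.

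Atf4 itself and Atf5, a related factor that is likewise regulated through translation, were highest in the 1-1 clones, which differed little from each other. Atf4 read 5226 in the parental line, 6879 in 1-1.2, 8096 in 1-1.16, 4709 in 5-3.14 and 3699 in 5-3.19. The array measures its mRNA, not the ATF4 protein, whose synthesis is the regulated step. Atf5 read 2647, 5255, 5491, 2362 and 1573. Its 2 highest arrays were almost level, at 1.98- and 2.07-fold over the parental line, and both 5-3 clones were below the parental line. Ppp1r15a encodes GADD34, the phosphatase subunit that reverses eIF2 phosphorylation. It read 397.8, 388.8, 760.2, 494 and 312.2, so that only 1-1.16 stood well above the parental array, at 1.86-fold.

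The 5 other genes of the regulator group differed by less than 2-fold between arrays in their brightest probe set. Chac1, which encodes a glutathione-degrading enzyme, read from 432.1 to 763.4, and Cebpg, a further partner of ATF4, from 2426 to 4228; a second, dimmer Cebpg probe set spanned 2.11-fold, from 734.4 to 1575.9. Eif4ebp1, whose product restrains cap-dependent translation, read from 195.2 to 333.7. All 3 were highest on 1-1.16. Nupr1, a stress-inducible chromatin protein gene, was instead highest in the parental line at 2946, with all clones between 1497 and 2082. Vldlr, a lipoprotein receptor gene, was also highest in the parental line, at 1303, although its 2 other tested probe sets were highest on 1-1.16 and on the parental array.

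**Figure D2:**
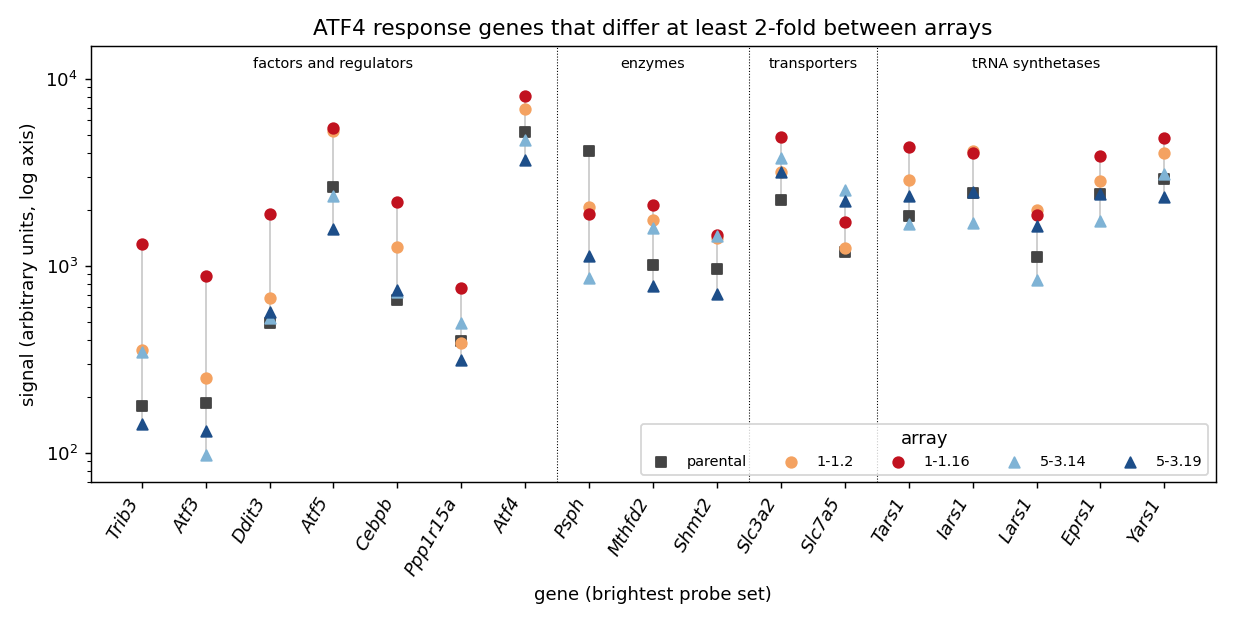
Signal (log axis, arbitrary units) on each array for the 17 tested genes whose highest and lowest arrays differ by at least 2-fold, grouped by role; squares are the parental line, circles the 1-1 clones and triangles the 5-3 clones, 1 array each. Clone 1-1.16 is at the top for Trib3, Atf3, Ddit3 and Cebpb, whereas the parental line is at the top for Psph and the 5-3 clones for Slc7a5.

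The enzyme genes did not follow a single order. Psph encodes the phosphatase that completes serine synthesis, and it had the widest range of the enzymes, 4.65-fold. It read 4111 in the parental line, 2073 in 1-1.2, 1888 in 1-1.16, 867 in 5-3.14 and 1135 in 5-3.19. All clones were below the parental line, and the 5-3 clones were below the 1-1 clones. Mthfd2 and Shmt2 encode mitochondrial enzymes that pass carbon units from serine to folate. Mthfd2 read 1006, 1762, 2121, 1599 and 783 on the arrays in the order given above. Shmt2 read 959, 1409, 1457, 1452 and 704. In both genes clones 1-1.2, 1-1.16 and 5-3.14 were above the parental line and 5-3.19 was below it. Psat1, which acts before Psph in serine synthesis, read from 2357 to 4564, highest on 1-1.16, so that its parental signal of 2555 was among the lowest while that of Psph was the highest. Asns, the asparagine synthetase gene often used to report ATF4 activity, differed by only 1.53-fold, from 4161 to 6394. Aldh18a1, of proline synthesis, differed by 1.36-fold and Got1, an aspartate aminotransferase gene, by 1.78-fold, the latter highest in the parental line. The dim Cth probe set read 8.2, 90.0, 64.5, 41.4 and 11.1 and was not tested.

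Of the transporter genes, Slc7a5 and Slc3a2 were above the parental line in both 5-3 clones, while the probe sets of Slc7a1 disagreed. Slc7a5 encodes the light chain LAT1, which imports large neutral amino acids. It read 1181 in the parental line, 1242 in 1-1.2, 1713 in 1-1.16, 2553 in 5-3.14 and 2230 in 5-3.19, so that both 5-3 clones exceeded both 1-1 clones. Its partner Slc3a2, the heavy chain of this and other transporters, read 2249, 3191, 4861, 3765 and 3169. All 4 clones were above the parental line and the sets overlapped. Slc7a1, of the cationic amino acid transporter CAT1, read from 1856 in 5-3.19 to 3635 in 1-1.16. A second tested probe set of Slc7a1 was highest on 1-1.2 at 2173, against 1661 on 1-1.16, so the probe sets disagreed on the order of the 1-1 clones. It was above its parental signal of 1122 in both 5-3 clones, at 1232 and 1514, while the brighter probe set was above its own parental signal only in 5-3.14.

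The tRNA synthetase genes, whose products charge tRNAs with amino acids, were higher in the 1-1 clones than in the 5-3 clones for 10 of 12 genes, without overlap, where 24.5% of all tested probe sets did so. The count was 10 under each scaling, offset and filter tried. In both 1-1 clones all 12 were above the parental array, while in 5-3.14 5 were above and 7 below it, and in 5-3.19 7 above and 5 below. Median log2 differences from it were 0.39 in 1-1.2 and 0.65 in 1-1.16, against 0.00 and 0.04 over all probe sets. They were -0.15 in 5-3.14 and 0.01 in 5-3.19, against -0.02 and -0.01. Tars1 had the widest range, 2.56-fold. It read 1848 in the parental line, 2871 in 1-1.2, 4342 in 1-1.16, 1681 in 5-3.14 and 2379 in 5-3.19. Iars1 read 2455, 4131, 3994, 1692 and 2481. The 1-1 clones were close to each other, and 5-3.19 was level with the parental line. Lars1 read 1116, 1999, 1863, 840 and 1629, with 5-3.14 alone below the parental line. Eprs1, for the bifunctional glutamyl-prolyl enzyme, read 2428, 2857, 3892, 1739 and 2433. Yars1 read 2909, 4012, 4810, 3108 and 2328, and here 5-3.19 was the lowest array. The other 7 genes ranged over 1.47-fold (Wars1) to 1.86-fold (Mars1). Cars1 was highest on 1-1.2 by its brightest probe set and on 1-1.16 by its 2 others. Aars1 ran the other way from most: parental cells gave 2317, the 1-1 clones 2591 and 2522, and the 5-3 clones 4250 and 3404. Wars1 was the other exception, with the sets overlapping between 2291 and 3315.

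Against the parental array, the number of response genes at least 2-fold away was largest in 1-1.16. In 1-1.16, 8 of 34 genes were at least 2-fold higher (3.16% of all probe sets) and 1, Psph, was lower (4.46%). The 8 were Trib3, Atf3, Ddit3, Cebpb, Tars1, Slc3a2, Mthfd2 and Atf5. In 1-1.2 no gene was that far away in either direction (1.6% of all probe sets higher and 3.45% lower). In 5-3.14, Slc7a5 was higher (3.32%) and Psph lower (5.6%). In 5-3.19 none was higher (2.56%) and Psph was lower (2.61%). The median log2 difference over the 34 genes was 0.36 in 1-1.2 and 0.66 in 1-1.16, with medians over all probe sets of 0.00 and 0.04. It was -0.16 in 5-3.19 and -0.10 in 5-3.14, but 0.004 in 5-3.14 after quantile normalization. These comparisons all use the same parental array, whose poly(A) control signals stood above those of the clones, and with 1 array a line they have no replicate check.

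**Figure D3:**
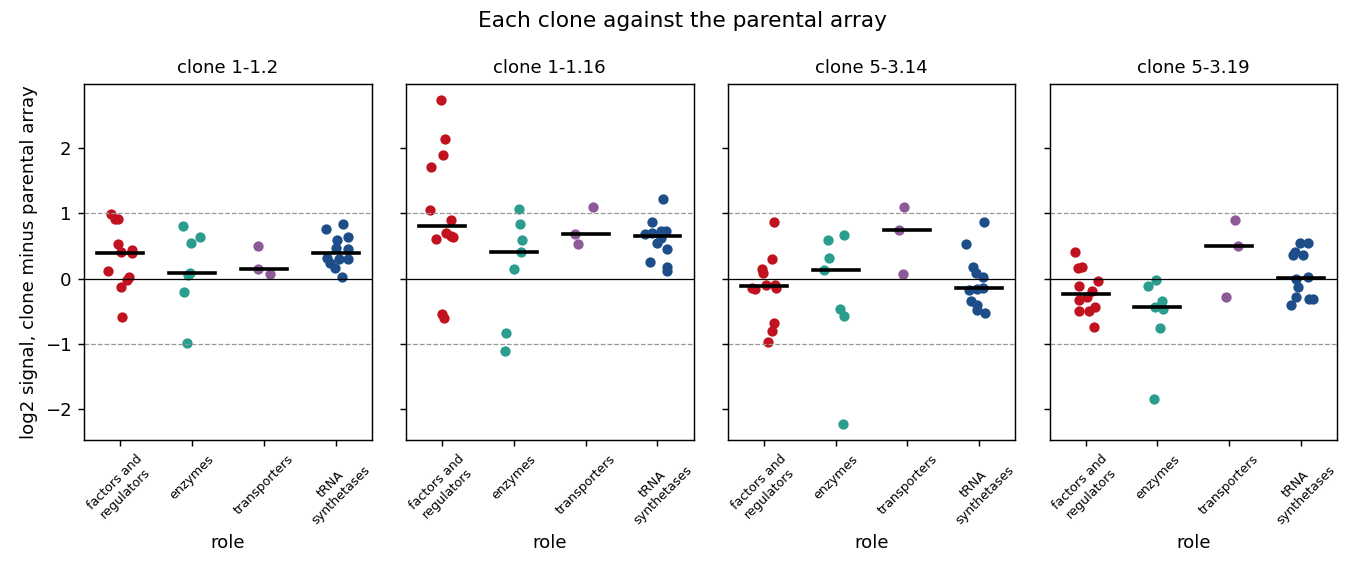
Difference in log2(signal + 21.8) of each clone from the parental array for the 34 tested genes by role; points are genes, thick lines are medians and dashed lines mark a 2-fold difference. Clone 1-1.16 has 8 genes above the upper line, and Psph is below the lower line in 1-1.16, 5-3.14 and 5-3.19.

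With the 4 clones taken as a group against the parental array, limma called 0 of 34 genes at an adjusted p of 0.05, as it called 0% of all probe sets higher and 0% lower. At an unadjusted p under 0.05, 0 genes were higher (1.54% of all probe sets) and 1 was lower (2.12%). This was Psph, with a log2 difference of -1.54 (SE 0.49, n = 4 clones and 1 parental array, limma unadjusted p = 0.01715, adjusted p = 0.9996), and it was lower in 4 of 4 clones. In 7 genes every clone was above the parental array (18.4% of all probe sets) and in 4 every clone was below it (19.7%). The largest fitted increase was that of Trib3, 1.05 with an SE of 0.96 (limma adjusted p = 0.9996), and it became 0.494 without 1-1.16, below that of Slc7a5 at 0.692.

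Set 5-3 was below set 1-1 in the fitted difference of 31 of 34 genes, with a median log2 difference of -0.60 against -0.04 over all tested probe sets. The parental signals do not enter this difference, although that array took part in the offset, the filter, the choice of probe set and the eBayes trend. None of the 34 passed an adjusted p of 0.05 in limma, which called 0.221% of all probe sets higher and 0.2% lower in set 5-3. At an unadjusted p under 0.05, 2 genes were higher (7.91% of all probe sets) and 16 were lower (6.93%). Both 1-1 clones were above both 5-3 clones in 23 genes (24.5%) and below them in 2 genes, Slc7a5 and Aars1 (22.1%). The lowest adjusted p belonged to Atf5, at 0.07049, with a log2 difference of -1.47 (SE 0.25, 2 clones a set, limma). Atf3 had the largest difference, -1.88 (SE 0.55, limma adjusted p = 0.2001), followed by Trib3 at -1.53 (SE 0.64), but without 1-1.16 these became -1.015 and -0.622 and that of Atf5, at -1.436, was larger than both. Atf4 differed by -0.84 (SE 0.21, limma adjusted p = 0.1588), Cebpb by -1.15 (SE 0.30), Psph by -0.98 (SE 0.23) and Iars1 by -0.98 (SE 0.25). In the other direction Slc7a5 differed by 0.70 (SE 0.25, limma adjusted p = 0.2497) and Aars1 by 0.57 (SE 0.21, limma adjusted p = 0.2791). The medians were -0.78 for regulators, -0.57 for enzymes, -0.19 for transporters and -0.69 for tRNA synthetases.

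Atf3, Atf5 and Iars1 crossed the threshold only when certain single clones were left out. In each of these fits the lone clone of a set is assumed to vary like the other set. The share of all probe sets called in such fits is not given here, so these crossings are not read as results. The size of several differences between the sets also rested on 1 clone. Without 1-1.16 that of Ddit3 went from -1.02 to -0.294, that of Cebpb from -1.15 to -0.757 and that of Tars1 from -0.81 to -0.517. Without 5-3.14 that of Lars1 went from -0.71 to -0.242 and that of Eprs1 from -0.69 to -0.451, and without 5-3.19 that of Mthfd2 from -0.78 to -0.271. The sign turned in Ppp1r15a and Shmt2: Ppp1r15a went from -0.45 to 0.016 without 1-1.16, and Shmt2 from -0.49 to 0.018 without 5-3.19.

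**Figure D4:**
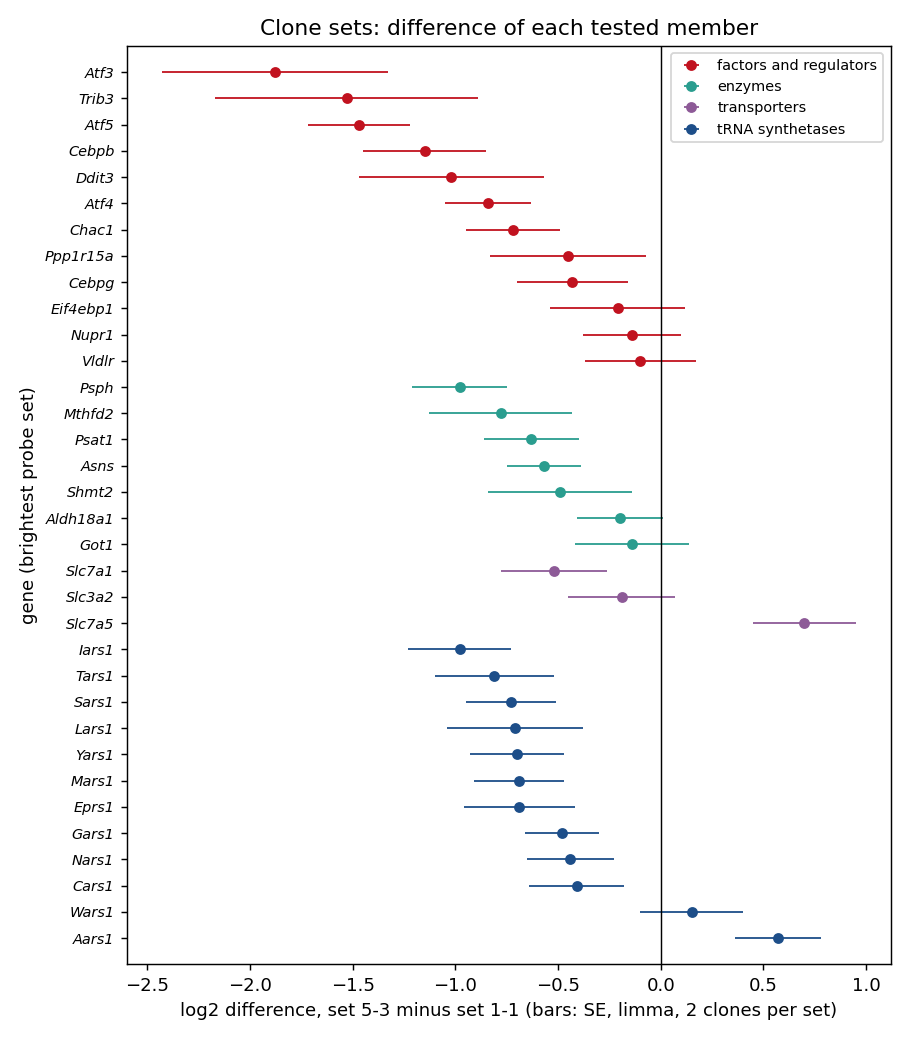
Fitted log2 difference of set 5-3 minus set 1-1 for the 34 tested genes, with bars of 1 SE from limma and 2 clones a set; colours mark the roles. Points lie left of 0 for 31 genes, and Slc7a5, Aars1 and Wars1 lie right of it.

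The 2 clones of each set differed from each other by at least 2-fold in 3 genes, and Trib3 was among them in both sets. Clone 1-1.16 exceeded 1-1.2 by at least 2-fold in 3 genes, Trib3 (3.54-fold), Atf3 (3.30-fold) and Ddit3 (2.75-fold), and was that far below it in 0, where 1.54% and 1.12% of all probe sets were higher and lower. The median log2 difference of 1-1.16 from 1-1.2 was 0.58 over the regulators, 0.13 over the tRNA synthetases and 0.10 over the enzymes. Atf5, Asns, Sars1 and Iars1 were within 1.07-fold of each other in these clones. Clone 5-3.19 was at least 2-fold below 5-3.14 in 3 genes, Trib3 (2.23-fold), Shmt2 (2.03-fold) and Mthfd2 (2.01-fold), and above it in 0 (1.78% lower and 4.81% higher over all probe sets). Lars1 was instead higher in 5-3.19, by 0.94 on the log2 scale. Each of these values is from 1 array a clone and has no test.

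Genes that act upstream of ATF4 were compared next. All 15 listed genes for eIF2, its kinases, its exchange factor eIF2B and their regulators were tested. Of these 11 were highest on 1-1.16 (25.2% of all probe sets), a count that fell to 7 when each array was centred on its median. Their median log2 difference from the parental array was 0.53 in 1-1.16 and 0.29 in 1-1.2, against 0.04 and 0.00 over all probe sets. Between the sets, 14 of the 15 were lower in set 5-3 than in set 1-1. The median log2 difference was -0.29, against -0.04 over all probe sets. Eif2ak2, the double-stranded RNA sensing kinase gene, read 258.1, 529, 668, 202.6 and 533.7, low in the parental line and 5-3.14. Eif2ak4, for GCN2, which senses uncharged tRNA, read 469.4, 748.8, 948.4, 560.4 and 1017, highest on 5-3.19. Eif2b4, an eIF2B subunit gene, read 2098, 2759, 3380, 2167 and 1657. Gcn1, whose product activates GCN2, read 669.9, 717.8, 902.6, 636.3 and 442.7. The last 2 genes were highest on 1-1.16 and lowest on 5-3.19.

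Further genes of the amino acid response, taken from a list of 19, mostly did not share the high signals of 1-1.16 where they could be tested. Of 15 on the array only 6 were bright enough to test. Of these 1, the stress cytokine gene Gdf15, was highest on 1-1.16 (25.2% of all probe sets), at 795.5 against 382.7 to 522.9 elsewhere. Among the genes too dim to test, Cebpd, Mthfd1l and Slc1a5 were also highest on 1-1.16, and the others were not. The median log2 difference of the 6 from the parental array in 1-1.16 was -0.14. Slc38a2, of a neutral amino acid transporter, was highest in the parental line at 6077, with the clones between 3474 and 4217. Gadd45a, of a growth arrest protein, read 2482, 1072, 2046, 1293 and 2261, low in 1-1.2 and 5-3.14. Ddit4, an inhibitor of mTORC1, read from 842.2 to 858.8 in the parental line and the 1-1 clones, and 462.2 and 535.5 in 5-3.14 and 5-3.19.

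Of the 7 other cytosolic tRNA synthetase genes tested, 3 were highest on 1-1.16 (25.2% of all probe sets) and 4 on 5-3.14 (21.1%). Kars1 read 2017, 2311, 2648, 4609 and 3570, with both 5-3 clones above the rest, like Aars1. Farsa and Farsb encode the subunits of the phenylalanyl enzyme and differed in order. Farsa read 219.1, 335.4, 301.8, 626.5 and 359.6, highest on 5-3.14. Farsb read 617.5, 958.8, 1402, 617.2 and 1077, with 5-3.14 the lowest array. Rars1 read 1103, 1995, 2290, 913 and 1550, high in both 1-1 clones.

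Chaperones, folding enzymes and other genes of the endoplasmic reticulum and its related unfolded protein response, here called folding genes, were mostly highest on the other 1-1 clone. Of 17 tested genes 11 were highest on 1-1.2 (15.7% of all probe sets) and 2, Xbp1 and Edem1, on 1-1.16 (25.2%). In 1-1.16, 15 of the 17 were lower than in 1-1.2, with a median log2 difference of -0.48 against 0.05 over all probe sets. Under other scalings, offsets and filters 9 to 11 were highest on 1-1.2. Like the response genes, most folding genes were lower in set 5-3 than in set 1-1, 15 of 17. Their median log2 difference was -0.49, against -0.04 over all probe sets. Both 1-1 clones were above both 5-3 clones in 10 of the 17 (24.5% of all probe sets). Sdf2l1 read 4704, 9900, 2938, 4155 and 1157. Creld2 read 3076, 7948, 4299, 3276 and 2132. Dnajc3 read 1686, 2753, 2322, 798 and 1304. These 3 were highest on 1-1.2, whereas Dnajb9 was highest in the parental line at 2027, with the clones from 718 to 1164. None of the genes in these 4 lists was called by limma at an adjusted p of 0.05 against the parental array or between the sets.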

How the data were processed

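The authors' deposited values are linear signal intensities, 1 per probe set and array. How the scanner images became signals (software, background correction, detection calls) is not given in the sources used here. Of 15923 probe sets, 57 controls were left out of the tests. Gene symbols came from the platform annotation: 12783 of 15866 probe sets had 1 symbol, 312 several and 2771 none, and 12748 matched RefSeq (GRCr8) by gene number with 0 symbols changed. Signals were taken as log2(signal + 21.8), the offset being the 10th percentile of positive signals, and tested when their mean reached the 40th percentile, a signal near 194.

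limma 3.58.1 in R 4.3.3 (lmFit, eBayes with trend) was fitted on 9520 probe sets with Benjamini-Hochberg adjustment, for 4 clones against 1 parental array (3 residual degrees of freedom) and for set 5-3 against set 1-1 (2 residual degrees of freedom). The fits were tested on simulated data. Each p-value reflects only how far these clones, which may not be independent, differ among themselves, and the arrays' number limits the precision. Genes at least 2-fold apart between the highest and lowest array are given on every array, the others by range, and up to 4 genes of each other list with the widest range. Slc7a1 and Vldlr probe sets, and some narrow-range genes, were named after their values were seen. Members and lists were chosen with earlier results of these data known. Alternatives varied scaling, offset, filter, probe set choice, fold limit and the clones included.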

Additional observations from a re-analysis of the deposited data

Results flagged for a closer look

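Shmt2, the mitochondrial serine hydroxymethyltransferase gene, read 703.6 in clone 5-3.19, while the other 3 clones lay between 1409.2 and 1457.1. The gap to the nearest clone was 0.954 of the whole range of the 4 clones, above Dixon's critical value for 4 samples. On this scale the other 16 response genes with a range of at least 2-fold stayed under the critical value. The nearest was Ddit3 in 1-1.16, at 0.81, and gaps in linear signal were not tested. Chance exceeds the critical value in about 1 of 20 groups. With 17 genes examined, all picked for their range, 1 flag is close to that rate.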

How the results depend on the processing

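No paired analysis was made, because the labels pair no clone of set 1-1 with a clone of set 5-3. Of 246 alternative values for the counts and medians, 220 stayed within 1.5 times the main count or within the spread, and 26 moved. Of 323 for single genes and for counts over other lists, 316 kept direction and side of the threshold or stayed within 1.5 times, 4 became calls when a clone was left out, 2 reversed, and 1 moved (eIF2 genes highest on 1-1.16, 7 with median centring). The number of genes called lower in set 5-3 changed with the clone left out, in fits with 1 clone in a set. Leaving out 1 clone at a time, the Shmt2 difference between the sets ranged from -1.004 to 0.018 (without 5-3.19) and that of Ppp1r15a from -0.914 to 0.016 (without 1-1.16). At a fold limit of 1.5, the genes higher and lower than the parental array numbered 9 and 2 in 1-1.2, 22 and 3 in 1-1.16, 6 and 4 in 5-3.14, and 1 and 3 in 5-3.19. At that limit 8 were higher and 1 lower in 1-1.16 than in 1-1.2, and 1 was higher in 5-3.19 than in 5-3.14. The shares of all probe sets at a limit of 1.5 were not counted, so these counts have no baseline and only show the effect of the limit. In 1-1.2, 1 gene was 2-fold higher than parental with median centring, quantile normalization or no filter, and in 5-3.14, 2 were with no filter. With the filter at the 60th percentile, which tests fewer genes, 1 was 2-fold higher in 1-1.16 than in 1-1.2. With an offset 4 times larger, 0 were 2-fold lower in 5-3.19 than in 5-3.14. The median difference of 5-3.14 from parental was -0.017 with median centring, 0.004 with quantile normalization, -0.036 with cyclic loess and -0.040 with no filter. The median of 5-3.19 over 5-3.14 was -0.193 with median centring and -0.085 with the mean of probe sets. Where no construction of the alternative gives the reason, the cause was not tested. Dim genes such as Cth and Phgdh cannot be told from background without detection calls.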
